A study of Mus musculus with 54 samples.

Results

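Cmpd60 is a benzamide that selectively inhibits the histone deacetylases HDAC1 and HDAC2, and its effect on gene expression was compared here between the brain and the heart of aged mice. The 23 libraries compared are those of the brain and heart of 20-month-old mice, out of 54 libraries in the series. They comprised 6 brain libraries from Cmpd60-treated mice (33 to 38), 6 from vehicle-treated mice (27 to 32), 5 heart libraries from Cmpd60-treated mice (68 to 72) and 6 from vehicle-treated mice (62 to 67). All mice were males of a BL6 background, housed singly on regular chow and injected intraperitoneally once a day over 14 days, with Cmpd60 at 22.5 mg/kg or with its vehicle of DMSO, polyethylene glycol and saline. Both tissues came from the same cohort of mice, but the labels do not tell which brain and which heart shared a mouse, so a response shared through the mouse cannot be told apart from one shared through the drug. A single dose and a single time point were sampled, and no young or untreated mice were included.

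HDAC1 and HDAC2 remove acetyl groups from histone tails within large complexes such as NuRD, SIN3 and CoREST, which are recruited to chromatin by other factors and are associated with reduced transcription. Through CoREST and SIN3, the repressor REST keeps many neuronal genes at low levels outside the nervous system. Brain and heart share these enzymes but differ in most of the genes that they express strongly, among them the neuronal genes that REST restrains in the heart.

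Poly(A)-selected RNA was measured as read counts per gene. Gene counts ranged from 26402957 to 57430113 per brain library and from 23584609 to 43792168 per heart library, and a count of 0 in any library allows a level of up to 0.127 CPM (counts scaled to a common library total). Brain Cmpd60 libraries were deeper than brain vehicle libraries, with medians of 38855584 and 28188597 counts. Heart vehicle library 66 stood apart with 17809 genes detected, against 19556 to 21593 in the other heart libraries, and heart vehicle library 62 correlated least with the rest of its tissue, so the main count is also given without both. The 8 ventricular cardiomyocyte markers summed to between 72200 and 84900 CPM in the heart and the 8 neuron markers to between 6060 and 7890 CPM in the brain, so each tissue carried its defining markers. The spread between mice, as the biological coefficient of variation, was 0.102 in the brain and 0.195 in the heart, and the median standard error of a gene's log2 fold change was 0.09 in the brain and 0.15 in the heart. The paper's aged cohort held fewer mice than the libraries compared here, so some mice gave more than a single library, and the labels do not say which. The tests of the difference and of the mean treat all libraries as independent, and the p-values measure the spread between these libraries.

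To ask which genes responded differently in both tissues, the treatment effect in the brain was subtracted from that in the heart for 18509 genes detected in both, using edgeR's quasi-likelihood test with Benjamini-Hochberg adjustment over all of these genes. This fit takes a single spread per gene over both tissues, although the spread was wider in the heart. A difference can therefore carry a smaller standard error than the heart effect alone. The difference of effects passed an adjusted p of 0.05 for 185 genes. In 136 of them (0.735% of the genes tested) the heart effect lay above the brain effect, and in 49 (0.265%) it lay below. Over the 136 genes the median log2 fold change was 0.51 in the heart and -0.08 in the brain, and over the 49 genes it was -0.65 and 0.13. The share with the heart effect above was 73.5%, and it moved to 61.9% (104 of 168) with scaling within each tissue, 56.3% (89 of 158) with the size factors of DESeq2, 51.7% (284 of 549) with the test of DESeq2 and 58.2% (107 of 184) without heart vehicle libraries 62 and 66. In that order, 152, 137, 180 and 115 of the genes called were among the 185. The count of 185 fell to 83 without heart Cmpd60 library 72 and to 98 without library 69, and to between 95 and 114 without any one of brain libraries 27, 30, 31, 32, 33, 34 and 37.

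Fitted alone, the tissues differed widely in the number of genes past the adjusted threshold. In the heart there were 309 (1.67% of those tested), of which 190 rose and 119 fell. The brain had 5 (0.0270%), namely Rab26, Arhgef25, Lgals3bp and an unnamed gene (ENSMUSG00000112627), which rose, and Hcn4, which fell. At an unadjusted p below 0.05 the tissues were close, with 1395 genes higher and 1427 lower in the brain (7.54% and 7.71%) and 1358 higher and 1193 lower in the heart (7.34% and 6.45%). The brain's count of 5 rested on single libraries, as it was 447 without brain vehicle library 29, 132 without brain Cmpd60 library 36, 1 without any one of libraries 27, 28, 31, 32, 33 and 34, 2 without library 35 and 3 without library 37. It was 9 without any one of heart libraries 62 to 66 and 70 to 72, which changed only the set of genes tested. The heart's count was 95 without Cmpd60 library 72, 113 without library 69, and 138, 186, 193 and 156 without vehicle libraries 63, 64, 65 and 67. Of the 309 heart genes, 193 had the same sign in the brain, 87 differed between tissues by the test of the difference, and 34 met the criteria for a like response given further on. Across the 12570 genes with a mean of at least 1 CPM in both tissues, the log2 fold changes of brain and heart correlated weakly (Pearson's r = 0.133, Spearman's rho = 0.125), across genes that are not independent replicates.

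**Figure D1:**
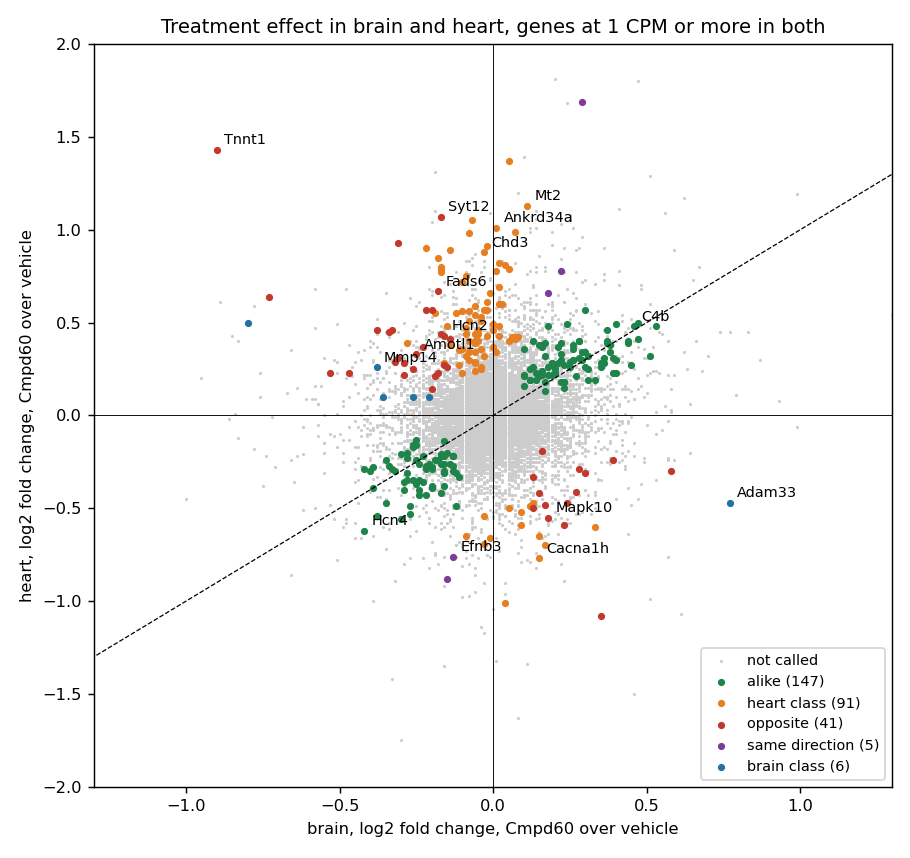
Brain log2 fold change of Cmpd60 over vehicle (x axis) against that of the heart (y axis) for each gene with a mean of at least 1 CPM in both tissues, 12567 points with 3 outside the axes. Coloured points mark genes whose effect differed between tissues, by class (91 in the heart, 41 opposite, 6 in the brain and 5 in the same direction), and the 147 genes that changed alike. The genes of the heart class spread along the vertical axis near a brain effect of 0, and the genes that changed alike lie along the diagonal.

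The 185 genes were sorted by what each tissue showed on its own. The class called heart held 107 genes with an unadjusted p below 0.01 in the heart and not below 0.05 in the brain, 86 of them with the heart effect above. Another 50 genes had opposite signs with an unadjusted p below 0.05 in each tissue, 7 were in the brain class by the reverse of the heart rule, 7 moved in the same direction to unequal extents and 14 fell in none of these. In the heart, the Cmpd60 and vehicle libraries did not overlap for 54 of the 86 genes of the heart class with the effect above, and for 0 of the 86 in the brain. Over all genes tested, such separation occurred in 455 in the heart (2.46%) and in 206 in the brain (1.11%). These counts describe the classes, since the same values chose them.

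Of the heart class, Chd3 had the smallest p of the difference. It encodes the ATPase CHD3, a chromatin remodeller and core subunit of the NuRD complex, in which HDAC1 and HDAC2 are the deacetylases. In the heart, Chd3 lay between 49 and 62.9 CPM (median 51.8) with vehicle and at 114, 91.3, 79, 97.9 and 122 CPM in the 5 Cmpd60 libraries. Brain libraries held between 548 and 728 CPM (median 599) with vehicle and between 549 and 623 CPM (median 601) with Cmpd60. All 5 heart libraries of treated mice thus stood above every vehicle library, whereas the brain groups overlapped at a level far above that of the heart. The log2 fold change was 0.88 ± 0.11 (SE) in the heart (adjusted p = 0.00144) and -0.03 ± 0.06 in the brain (adjusted p = 0.855), a difference of 0.93 ± 0.13 (adjusted p = 0.000573).

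Atp9a, a phospholipid flippase of endosomal membranes, followed the same pattern. Its heart level was 86.5 to 108 CPM (median 100) with vehicle and 135, 157, 137, 125 and 164 CPM with Cmpd60, against 336 to 378 and 331 to 373 CPM in the brain. The heart groups did not overlap and the brain groups did, with a difference of effects of 0.57 ± 0.09 (adjusted p = 0.00288). Samd10 (difference 0.88 ± 0.14, adjusted p = 0.00288) and Ankrd34a (1.03 ± 0.17, adjusted p = 0.00371) were likewise far higher in the brain than in the heart. Ankrd34a rose in the heart from 1.58 to 2.8 CPM with vehicle to 5.37, 4.62, 3.85, 2.69 and 5.34 CPM with Cmpd60, so that library 71 alone lay within the vehicle range, and its brain means were 47.8 and 47.9 CPM.

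Metallothioneins, small cysteine-rich proteins that bind zinc and copper and are induced by metals and glucocorticoids, gave a second clear case. Mt2 stood between 26.1 and 38.3 CPM (median 31.7) in vehicle hearts and at 60.4, 84.9, 72.3, 73.6 and 60.4 CPM in Cmpd60 hearts, with no overlap. In the brain, Mt2 ranged from 42.4 to 57.6 CPM with vehicle and from 37.2 to 65.6 CPM with Cmpd60, so that the treated range enclosed the vehicle range. The heart effect was 1.13 ± 0.12 (adjusted p = 0.000556), the brain effect 0.11 ± 0.14 and the difference 1.05 ± 0.19 (adjusted p = 0.00664). Its neighbour Mt1 also rose in the heart, by 0.58 ± 0.12 (adjusted p = 0.027), with a brain effect of 0.01 ± 0.17, but for Mt1 the difference between tissues did not pass (0.60 ± 0.21, adjusted p = 0.183).

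Genes that lay lower in the Cmpd60 hearts and not in the brain included Cacna1h, the pore subunit of a low-voltage-activated T-type calcium channel found in neurons and in developing and stressed heart. Cacna1h was between 61.5 and 84.6 CPM (median 67.5) in vehicle hearts and at 40.6, 35.1, 37.1, 59.9 and 37.2 CPM in Cmpd60 hearts. In the brain, it was between 41.1 and 58.3 CPM (median 56.6) with vehicle and between 52.7 and 67.3 CPM (median 58.1) with Cmpd60. The heart groups did not overlap, although library 71 was close to the vehicle range, and the effects were -0.77 ± 0.14 in the heart (adjusted p = 0.0229) and 0.15 ± 0.08 in the brain, a difference of -0.89 ± 0.17 (adjusted p = 0.00926).

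Atp8a2, another flippase and one typical of neurons, had a mean of 21.2 CPM in vehicle hearts and of 13.7 CPM in Cmpd60 hearts, against 89.8 and 89.3 CPM in the brain (difference -0.63 ± 0.13, adjusted p = 0.0139). Ncapd3, a subunit of condensin II, fell in the heart by 0.49 on the log2 scale (difference -0.58 ± 0.11, adjusted p = 0.00719). Sugp2, a nuclear protein related to splicing factors, fell there by 0.54 (difference -0.48 ± 0.10, adjusted p = 0.0147).

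**Figure D2:**
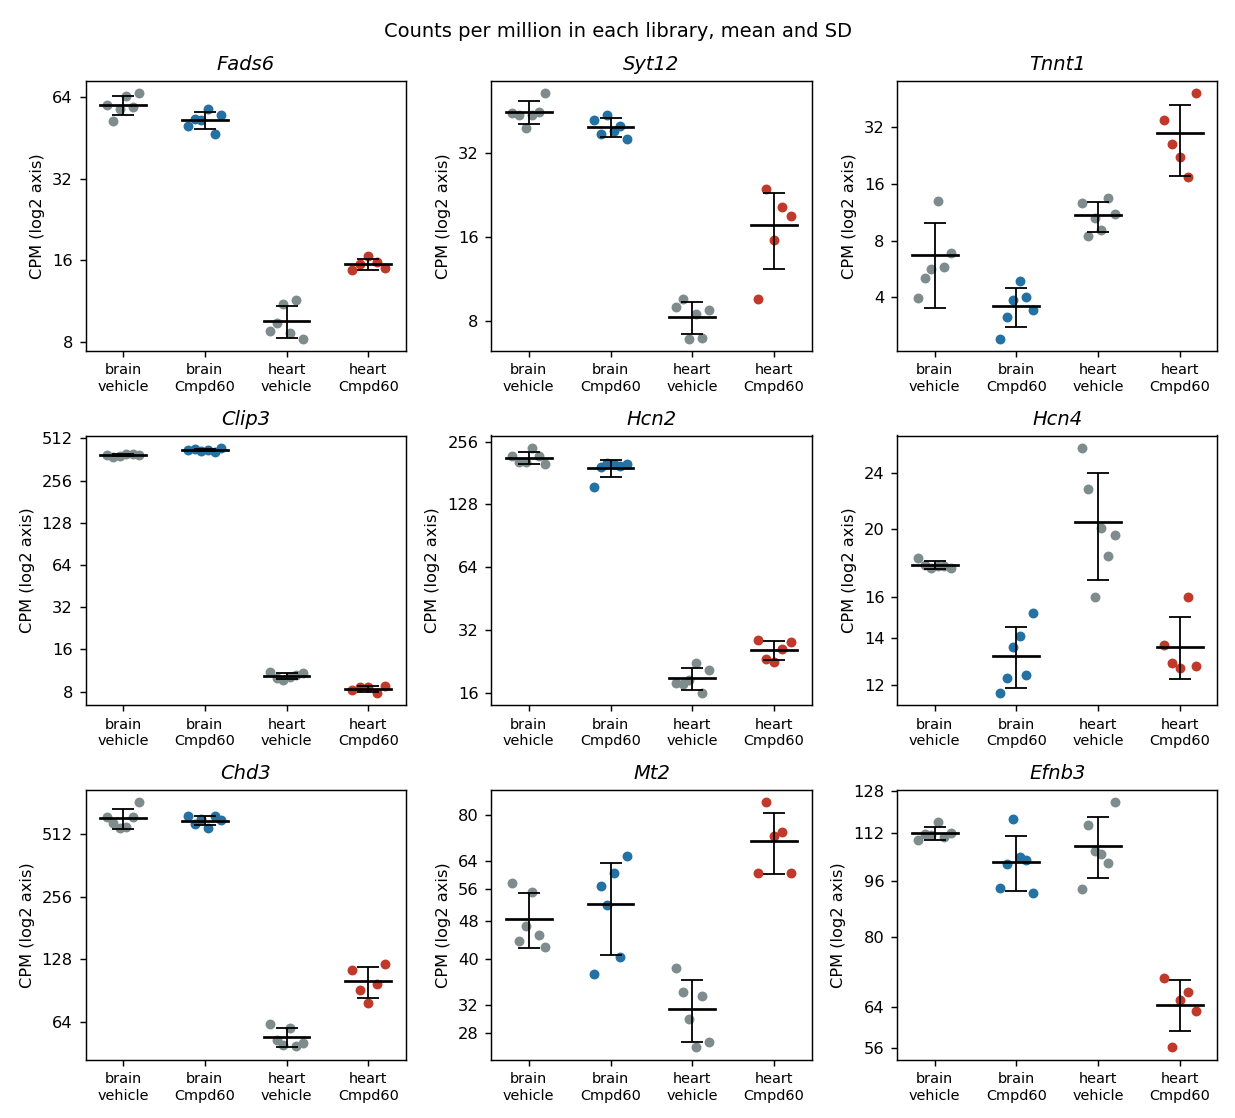
Level in each library, in CPM on a log2 axis, with the mean and SD of each group, for named genes of the opposite, heart and like classes. In the panel of Chd3 the 5 Cmpd60 hearts lie above all vehicle hearts while the brain groups overlap, and in the panel of Hcn4 the Cmpd60 libraries lie at or below the vehicle libraries in both tissues.

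The genes of the opposite class differed from those above in that the brain values also leaned away from vehicle, in the other direction. None of the 50 passed the adjusted threshold in the brain on its own, so their brain effects are given as values, and the test that they passed is that of the difference. Fads6, a member of the fatty acid desaturase family, had the smallest adjusted p of all genes tested (0.000278). It lay between 8.23 and 11.4 CPM (median 9.12) in vehicle hearts and at 14.7, 15.5, 16.6, 15.8 and 15 CPM in Cmpd60 hearts. Brain values lay between 52.4 and 66.3 CPM (median 59.3) with vehicle and between 46.9 and 57.8 CPM (median 53.1) with Cmpd60. The heart groups were separate and the brain groups overlapped, with a lower median after treatment. The effect was 0.67 ± 0.11 in the heart (adjusted p = 0.00684), -0.18 ± 0.06 in the brain (adjusted p = 0.183) and 0.89 ± 0.11 for the difference.

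Tnnt1, the slow skeletal muscle form of troponin T, which cardiomyocytes express in early development, gave the widest difference among the named genes with a mean above 1 CPM. Its heart level was 8.49 to 13.5 CPM (median 10.8) with vehicle and 34.8, 25.9, 22.3, 17.3 and 48.3 CPM with Cmpd60. Its brain level was 3.97 to 13 CPM (median 5.73) with vehicle and 2.42 to 4.88 CPM (median 3.64) with Cmpd60. All treated hearts were above all vehicle hearts, and 4 of the 6 treated brains were below all vehicle brains. The effects were 1.43 ± 0.26 (adjusted p = 0.0273) and -0.90 ± 0.26 (adjusted p = 0.168), and the difference was 2.35 ± 0.37 (adjusted p = 0.00371). Brain vehicle library 30, at 13 CPM, was far above the other brain libraries, and without it the brain effect was -0.59 and the difference 2.05 (adjusted p = 0.00424).

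Clip3, a microtubule-binding protein of the trans-Golgi network that is abundant in neurons, was the clearest reverse case. In the brain it lay between 377 and 397 CPM (median 391) with vehicle and between 411 and 439 CPM (median 423) with Cmpd60. In the heart it lay between 9.67 and 11.1 CPM (median 10.3) with vehicle and at 8.15, 8.59, 8.55, 7.81 and 8.76 CPM with Cmpd60. The groups did not overlap in either tissue, and the treated libraries were the higher ones in the brain and the lower ones in the heart. Both effects were small, at 0.13 ± 0.04 in the brain (adjusted p = 0.168) and -0.33 ± 0.11 in the heart (adjusted p = 0.129), and only their difference passed (-0.43 ± 0.07, adjusted p = 0.00297). The standard error of the difference lies below that of the heart effect because its fit pools the spread of both tissues.

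Also in the opposite class, Syt12, a synaptotagmin of synaptic vesicles, rose in the heart (1.07 ± 0.18, adjusted p = 0.0105) and had a brain effect of -0.17 ± 0.06, while the angiomotin-like junction protein Amotl1 rose in the heart (0.33 ± 0.06, adjusted p = 0.0079) against -0.25 ± 0.08 in the brain. Their differences were 1.26 ± 0.19 (adjusted p = 0.00288) and 0.61 ± 0.10 (adjusted p = 0.00371). Wnt5a, a ligand of non-canonical Wnt signalling, showed effects of 0.25 ± 0.09 in the heart and -0.26 ± 0.08 in the brain, neither past the adjusted threshold, with a difference of 0.53 ± 0.12 (adjusted p = 0.0243). In the other direction, Mapk10, the neuronal c-Jun N-terminal kinase JNK3, and Ints7, a subunit of the Integrator complex, fell in the heart by 0.55 and 0.48 (adjusted p = 0.0283 and 0.0308) and had brain effects of 0.18 and 0.17. Drc3, of the dynein regulatory complex of motile cilia, differed by -0.79 ± 0.17 (adjusted p = 0.0221).

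Channels of the HCN family, which carry the hyperpolarization-activated pacemaker current of the sinoatrial node and of many neurons, were split between a different and a like response. Hcn2 was between 16 and 22.2 CPM (median 18.1) in vehicle hearts and at 28.7, 23.4, 22.6, 26.1 and 28 CPM in Cmpd60 hearts. In the brain it was between 199 and 239 CPM (median 211) with vehicle and between 155.3 and 201 CPM (median 198) with Cmpd60, library 33 being the lowest. The heart effect was 0.43 ± 0.10 (adjusted p = 0.0246), the brain effect -0.16 ± 0.06 (adjusted p = 0.251) and the difference 0.62 ± 0.11 (adjusted p = 0.0073).

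Hcn4, the main pacemaker isoform of the sinoatrial node, fell in both tissues. Its brain levels were tightly grouped between 17.6 and 18.2 CPM (median 17.7) with vehicle and between 11.7 and 15.2 CPM (median 13) with Cmpd60, with no overlap. Heart levels were between 16 and 26.1 CPM (median 19.8) with vehicle and at 13.7, 12.9, 12.7, 16 and 12.8 CPM with Cmpd60, where library 71 was level with the lowest vehicle library. Its effect was -0.42 ± 0.07 in the brain (adjusted p = 0.0291) and -0.62 ± 0.12 in the heart (adjusted p = 0.0135), and it was the 1 named gene that passed the adjusted threshold in each tissue alone. In the brain alone it no longer passed without any one of libraries 27, 28, 31 to 35 and 37. The same held with either form of limma-voom and after thinning. Its mean effect of -0.51 ± 0.07 (adjusted p = 0.000427) passed in all 33 alternatives. The brain and heart effects differed by -0.17 ± 0.14 (95% interval -0.45 to 0.11). Since Hcn4 is enriched in the conduction system and the atria, 5 markers of atrial cardiomyocytes are given beside it. Their heart means with vehicle and with Cmpd60 were 684 and 483 CPM for Myl4, 426 and 265 CPM for Myl7, 170 and 130 CPM for Sln, 315 and 206 CPM for Bmp10 and 3370 and 3340 CPM for Nppa, so that all 5 were lower and Nppa made up most of the sum (3530 to 8390 CPM with vehicle, 2640 to 7620 CPM with Cmpd60). Of these, 4 were detected in both tissues and tested, with a median heart effect of -0.47, 1 of them lower at an unadjusted p below 0.05 and none past an adjusted edgeR test. The part of atrial content in the Hcn4 result was not tested. In bulk tissue, fewer cells of a type and less RNA per cell cannot be told apart.

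The bases upstream of these channel genes and of Fads6 are shown because the HCN pair divided between a like and a different response and Fads6 had the smallest p. Each line gives the 250 bases before the RefSeq start site in GRCm38.p6, for Hcn2 at chr10:79716384-79716633 on the plus strand, for Hcn4 at chr9:58822699-58822948 on the plus strand and for Fads6 at chr11:115297563-115297812 on the minus strand. Capitals mark the GC box, the binding motif of Sp family factors, searched as GGGCGG and its reverse complement CCGCCC.
Hcn2: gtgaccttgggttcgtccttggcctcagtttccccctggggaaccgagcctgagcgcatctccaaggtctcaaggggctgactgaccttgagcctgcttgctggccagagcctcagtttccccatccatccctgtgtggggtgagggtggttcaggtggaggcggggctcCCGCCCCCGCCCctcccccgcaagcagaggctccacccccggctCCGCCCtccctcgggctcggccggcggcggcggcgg
Hcn4: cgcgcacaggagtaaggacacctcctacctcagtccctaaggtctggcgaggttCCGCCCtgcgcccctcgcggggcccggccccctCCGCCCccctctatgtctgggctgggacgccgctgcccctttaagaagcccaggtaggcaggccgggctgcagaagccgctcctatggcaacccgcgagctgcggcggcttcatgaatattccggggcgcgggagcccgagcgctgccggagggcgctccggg
Fads6: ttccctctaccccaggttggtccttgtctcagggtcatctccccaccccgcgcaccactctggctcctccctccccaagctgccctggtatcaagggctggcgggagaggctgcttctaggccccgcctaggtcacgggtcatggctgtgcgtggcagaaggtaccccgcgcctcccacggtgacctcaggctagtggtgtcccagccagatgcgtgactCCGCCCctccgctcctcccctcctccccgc
There were 3 GC boxes before Hcn2, 2 before Hcn4 and 1 before Fads6, with a GC content of 70.4%, 71.2% and 67.6%. A GC box occurred in 10756 of 32851 promoters (32.7%) of the same length. The motif is therefore shared by genes that responded in different ways, and its presence is a description of these windows and not evidence of a bound factor.

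The brain class held 7 genes, Etv4, Adarb1, Kank1, Lhfp, Mmp14, Wnt9b and Adam33, and none of them passed the adjusted threshold in the brain alone. Adarb1, the adenosine deaminase ADAR2 that edits glutamate receptor transcripts, was between 296 and 340 CPM (median 321) in vehicle brains and between 265 and 280 CPM (median 276) in Cmpd60 brains, with no overlap. In the heart it was between 39.5 and 46.9 CPM with vehicle and at 45.5, 47.1, 46, 46.5 and 51.1 CPM with Cmpd60. The difference was 0.33 ± 0.08 (adjusted p = 0.0291) on a brain effect of -0.21 ± 0.04 (adjusted p = 0.0766), and was lost in 7 of 33 alternatives. Kank1, a regulator of the cell cortex, also did not overlap in the brain, at 24.1 to 28.9 CPM with vehicle and 19.1 to 23.3 CPM with Cmpd60 (difference 0.39 ± 0.09, adjusted p = 0.0324). Mmp14 and Adam33, both membrane-bound metalloproteinases, had brain effects of -0.38 ± 0.10 and 0.77 ± 0.16, with differences of 0.68 ± 0.17 (adjusted p = 0.0458) and -1.21 ± 0.29 (adjusted p = 0.0402). The differences of Kank1, Mmp14 and Adam33 were lost in 11, 22 and 19 of the 33 alternatives.

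In the class with the same direction, both tissues moved one way and the heart moved further. Efnb3, a transmembrane ligand of Eph receptors that guides axons, had the smallest adjusted p of the heart fit (1.21e-05). It lay between 93.4 and 124 CPM (median 105) in vehicle hearts and at 70.2, 56.1, 65.4, 67 and 63.1 CPM in Cmpd60 hearts. In the brain it lay between 109 and 116 CPM (median 111) with vehicle and between 92.3 and 117 CPM (median 102) with Cmpd60, so that 5 treated libraries lay below every vehicle library and 1 above. The effects were -0.76 ± 0.07 and -0.13 ± 0.05, with a difference of -0.60 ± 0.10 (adjusted p = 0.00288). Ephb1, an Eph receptor, showed effects of -0.88 ± 0.20 in the heart (adjusted p = 0.0294) and -0.15 ± 0.06 in the brain, with a difference of -0.71 ± 0.17 (adjusted p = 0.0402) that was lost in 20 of 33 alternatives.

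The named genes of this class that rose had a higher level in the brain than in the heart. Ddn, which encodes dendrin, a protein of dendrites and of kidney podocytes, was between 0.144 and 0.955 CPM in vehicle hearts and at 2.3, 2.11, 1.75, 1.03 and 1.54 CPM in Cmpd60 hearts, against 617 to 757 and 704 to 975 CPM in the brain. Its effects were 1.69 ± 0.40 in the heart (adjusted p = 0.0329) and 0.29 ± 0.07 in the brain (difference 1.36 ± 0.29, adjusted p = 0.0243). Cacnb1, an auxiliary subunit of voltage-gated calcium channels (difference 0.51 ± 0.13, adjusted p = 0.0476), and BC018242 (0.58 ± 0.14, adjusted p = 0.0441) passed narrowly and were lost in 24 and 21 of 33 alternatives. Ddn was lost in 3, with either form of limma-voom (adjusted p = 0.187 and 0.313) and without heart Cmpd60 library 69.

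The level of a gene in either tissue is given here as a description, with no test. Level sets the precision of a value and so bears on which genes pass. For the genes that changed alike, the median heart level was 62.7 CPM for the higher and 36.1 CPM for the lower ones against 9.55 CPM over all genes. For the difference, the pooled spread can give genes high in the brain a smaller standard error than their heart effect. Examples are Ddn (0.29 against 0.40) and Samd10 (0.14 against 0.19). The part of this in the shares that follow was not tested. Over all genes tested, 2633 (14.2%) were more than 4-fold higher in the brain than in the heart by their mean CPM. Of the 136 genes with the heart effect above, 48 (35.3%) were, and of the 49 with the heart effect below, 24 (49%) were. Among the genes that changed alike, it was 7 of the 84 higher ones (8.33%) and 1 of the 63 lower ones (1.59%), and 33 of the 84 (39.3%) were more than 4-fold higher in the heart, against 11.8% of all genes. In the bin of genes more than 16-fold higher in the brain, 20 of 1139 had the heart effect above (1.76%) and 16 below (1.40%), so that both directions were raised.

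These shares depended on the method for the genes with the heart effect below. With limma-voom, 4 of 22 such genes (18.2%) were more than 4-fold higher in the brain, and with its quality weights 2 of 18 (11.1%), whereas for the heart effect above these tests gave 29.2% and 26.3%. In the heart, the 8 neuron markers summed to 72.3 to 87.4 CPM with vehicle and 67.2 to 93.6 CPM with Cmpd60. Slc17a7 alone made up most of this sum, with means of 70.4 and 70.6 CPM, and Map2 was next with 4.82 and 5.06 CPM. The neuron sum therefore says little about the other neuron markers. The 8 oligodendrocyte markers summed to 28.1 to 39.6 and 27.7 to 36.5 CPM, and both sums overlapped between groups. The astrocyte sum did move in the heart, from 509 to 593 CPM up to 631 to 896 CPM, through Gja1. This gene encodes the gap junction protein connexin 43 of cardiomyocytes as well as astrocytes, and it rose in the heart by 0.43 (adjusted p = 0.0117). Of the 8 astrocyte markers, 5 were lower in the heart. The difference passed for Gja1 (0.44, adjusted p = 0.0324) and, the other way, for Slc1a2 (-0.69, adjusted p = 0.0483), at heart means of 1.9 and 1.35 CPM.

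**Figure D3:**
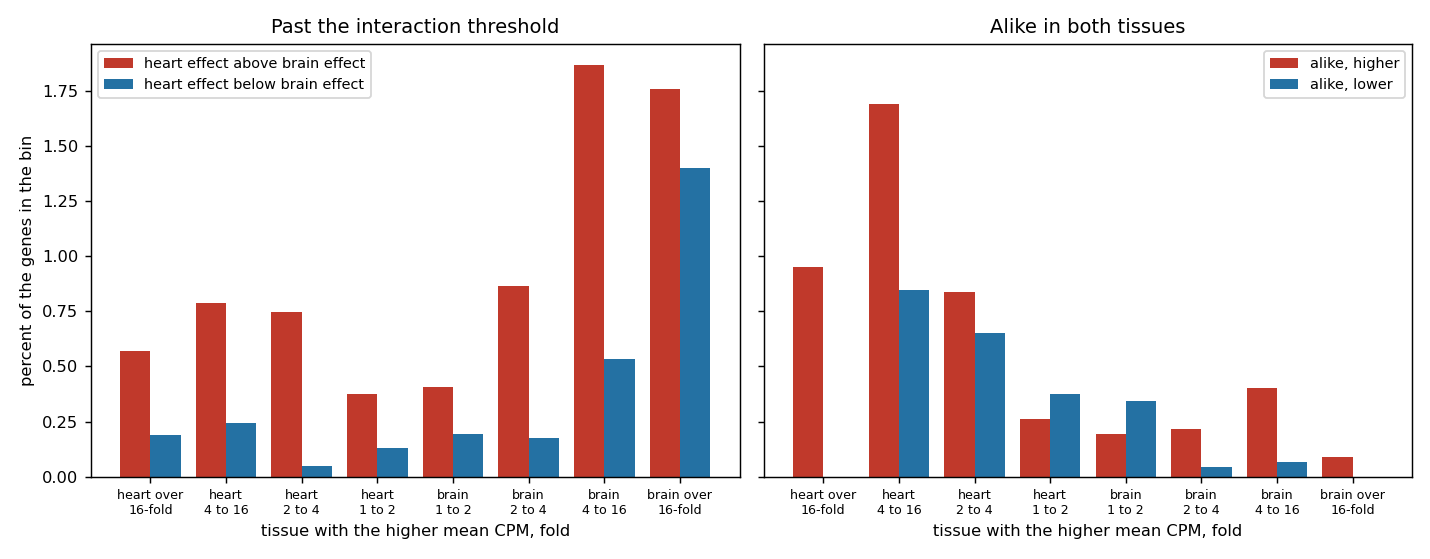
Percent of genes in each bin of relative level (x axis, ratio of the mean CPM in brain and heart over all libraries) that differed between tissues, by direction, or that changed alike, by direction. The share with the heart effect above reaches 1.87% and 1.76% in the bins of genes 4- to 16-fold and over 16-fold higher in the brain, and the share that changed alike and higher peaks at 1.69% in the bin of genes 4- to 16-fold higher in the heart.

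Next, genes with a shared response were sought from the mean of both effects. This mean passed the adjusted threshold for 448 genes, 298 higher (1.61% of the genes tested) and 150 lower (0.810%). It can pass through a single tissue, as for Chd3 with effects of 0.88 in the heart and -0.03 in the brain. A gene was called alike if it also had an unadjusted p below 0.05 with the same sign in each tissue and if the 95% interval of the difference lay within a 1.5-fold change (0.58 on the log2 scale) in either direction. This held for 147 genes, of which 84 were higher (0.454%) and 63 lower (0.340%). The higher genes had median log2 fold changes of 0.24 (brain) and 0.29 (heart), against -0.24 and -0.29 for the lower ones. The Cmpd60 and vehicle libraries did not overlap for 14 of the 84 higher genes in the brain and 26 in the heart, and for 9 and 17 of the 63 lower genes, against 1.11% of all genes in the brain and 2.46% in the heart. The same values chose these genes, so nothing is read from these counts. The 147 genes became 90 without brain Cmpd60 library 34 and 91 without heart Cmpd60 library 69, and the 448 genes became 282 without library 69. Alike means alike within this bound, since for 10 of the 147 genes the interval of the difference did not include 0.

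Among the genes that changed alike and higher, Acsf2, a mitochondrial acyl-CoA synthetase, rose from between 12.7 and 14.2 CPM (median 13) to between 15.7 and 18.3 CPM (median 16.9) in the brain. In the heart it went from between 56.7 and 68.5 CPM (median 62.4) to 87, 71, 91.4, 67.7 and 77.2 CPM. There was no overlap in the brain, and library 71 was the 1 treated heart within the vehicle range. The mean effect was 0.35 ± 0.05 (adjusted p = 0.000764) and the difference -0.01 ± 0.10 (95% interval -0.22 to 0.20).

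C4b, a component of the classical complement pathway, rose by 0.46 ± 0.08 in the brain and 0.48 ± 0.13 in the heart, with a mean effect of 0.48 ± 0.07 (adjusted p = 0.00111). C4b has a close copy, C4a, and how reads that align to both were counted was not examined here, so its level may be affected. Fbxl16, an F-box protein enriched in the brain, had means of 483 and 592 CPM there and of 4.72 and 7.14 CPM in the heart, with no overlap in either tissue (mean effect 0.44 ± 0.06, adjusted p = 0.000427). Mttp, which loads lipid onto apolipoprotein B, rose by a mean of 0.38 ± 0.06 (adjusted p = 0.00151), and Mr1, which presents microbial metabolites to T cells, by 0.35 ± 0.06 (adjusted p = 0.00278). Tmbim1 rose by 0.28 ± 0.05 (adjusted p = 0.00293). Beside these, 11 of 13 macrophage and microglia markers were higher in the heart (6 at an unadjusted p below 0.05), and they summed to 298 to 474 CPM with vehicle and 403 to 498 CPM with Cmpd60 there, and to 227 to 261 and 218 to 255 CPM in the brain. Among them the difference passed for the mannose receptor Mrc1 (0.82, adjusted p = 0.0492). All 8 lymphocyte markers were lower in the heart (4 at an unadjusted p below 0.05, none past the adjusted threshold), summing to 5.33 to 11.5 CPM with vehicle and 1.86 to 5.33 CPM with Cmpd60, and to 2.38 to 3.56 and 1.92 to 3.37 CPM in the brain. Their heart means were low, from 0.142 CPM (Cd3e with Cmpd60) to 1.85 CPM (Cd79b with vehicle), where a count of 0 allows up to 0.127 CPM. Trbc2 made up most of the brain sum, with means of 1.94 and 2.16 CPM. No marker of either list was at 0 in every library of a group, and the part of these cells in the values above was not tested.

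Among the genes that changed alike and lower, Coq7, a hydroxylase of ubiquinone synthesis, stood between 17.2 and 23.2 CPM (median 18.1) in vehicle brains and between 12.1 and 16.8 CPM (median 15.6) in Cmpd60 brains. In the heart it stood between 71.9 and 84.9 CPM (median 78.7) with vehicle and at 69.2, 64.5, 61.7, 65 and 62.6 CPM with Cmpd60. The groups were separate in both tissues, with a mean effect of -0.30 ± 0.05 (adjusted p = 0.00395). Ccdc90b and Akr1b10, an aldo-keto reductase, both fell by a mean of 0.29 (adjusted p = 0.00395 and 0.00564), as did the peptidase Nln (adjusted p = 0.00192), whose difference between tissues was close to the bound (-0.35, 95% interval -0.55 to -0.15), and Tor1aip1, a protein of the inner nuclear membrane, fell by 0.20 (adjusted p = 0.00586). Fold changes in this group were below 1.5-fold in either tissue for each named gene other than Hcn4.

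Further named genes with a like response were Mapk3, the kinase ERK1 (mean effect 0.21 ± 0.05, adjusted p = 0.0129), the sphingosine-1-phosphate transporter Spns2 (0.25 ± 0.06, adjusted p = 0.0304, lost in 7 of 33 alternatives) and Mrps28, a mitochondrial ribosomal protein (-0.30 ± 0.07, adjusted p = 0.0173). By contrast, Rab26, a GTPase of secretory and synaptic vesicles with the smallest p in the brain, could not be compared. It rose in the brain from between 16.4 and 18.8 CPM (median 17.7) to between 21.7 and 27 CPM (median 26.3), by 0.52 ± 0.06 (adjusted p = 0.00179), but its heart level was at most 0.346 CPM in any library. Its heart effect had a 95% interval of -2.23 to 2.63, and Fabp7, a fatty acid-binding protein of astrocytes and radial glia that also stayed below 1 CPM in the heart, had one of -2.01 to 1.17.

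**Figure D4:**
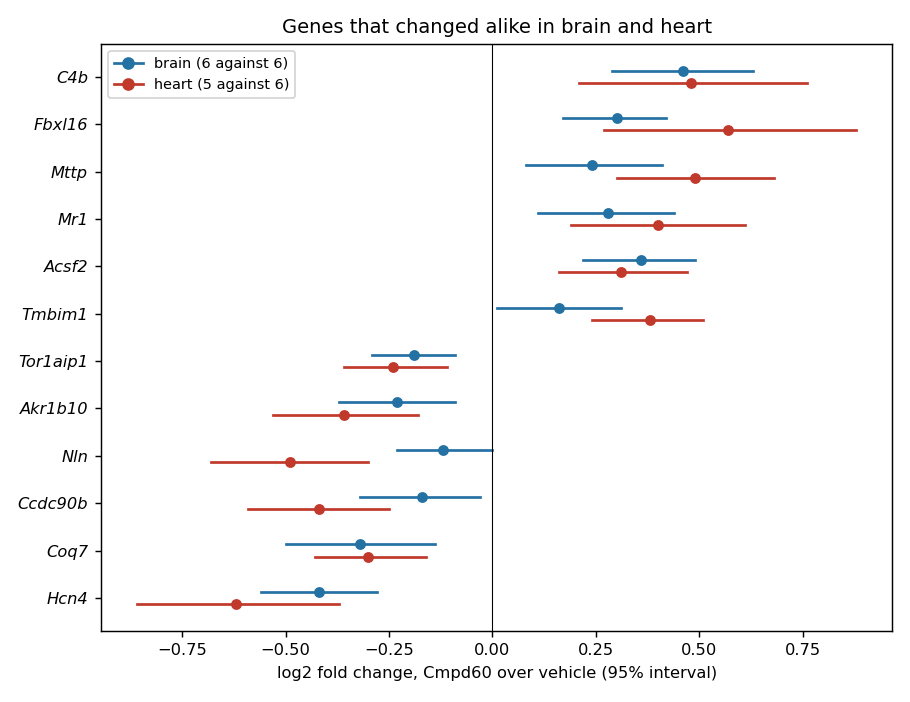
Log2 fold change of Cmpd60 over vehicle with its 95% interval, by tissue, among named genes that changed alike. The points of both tissues lie on the same side of 0 for each gene, with Hcn4 at -0.42 in the brain and -0.62 in the heart as the farthest below.

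The drug's own targets and their partners were examined as a list of 43 subunits of HDAC1/2 complexes. Hdac1 lay between 18.5 and 21.2 CPM in vehicle brains, 16.2 and 24 CPM in Cmpd60 brains, 20.9 and 30.2 CPM in vehicle hearts, and 23.5 and 28.2 CPM in Cmpd60 hearts. Its effects differed by 0.05 ± 0.13 (95% interval -0.21 to 0.31) and those of Hdac2 by -0.09 ± 0.08 (-0.26 to 0.08), with overlapping groups in each tissue. Of the list, Chd3 was the 1 gene whose effect differed between tissues in edgeR, whereas DESeq2 called 1 with the heart effect above and 2 below. The mean effect passed for Chd3 (higher) and for the NuRD subunit Mbd3 and the scaffold Sin3a (lower, by 0.20 and 0.14), which were both alike. The median effect over the list was 0.01 in the brain and -0.02 in the heart. None of 16 other deacetylase genes passed the edgeR test of the difference or of the mean, while 3 were higher in the brain and 1 higher and 1 lower in the heart at an unadjusted p below 0.05.

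Neuronal genes repressed by REST in other tissues were represented by 35 tested genes with medians of 0.05 in the brain and -0.02 in the heart, beside 0.00 in both tissues over all genes. The difference passed for Hcn2 and Mapk8ip2 (heart above) and for Cacna1h (heart below), and the mean effect passed for Mapk8ip2 (0.63, adjusted p = 0.011) and Hcn4. Mapk8ip2, a scaffold protein of the JNK pathway, had means of 345 and 360 CPM in the brain and 0.488 and 1.05 CPM in the heart. In the brain 25 of the 35 were higher, and 7 were higher and 5 lower at an unadjusted p below 0.05. In the heart 16 were higher, with 2 higher and 3 lower at that threshold, and the heart median was 0.13 without heart vehicle libraries 62 and 66.

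Genes of the extracellular matrix and of TGF-β signalling had a higher median in the heart (0.19) than in the brain (0.01) over 62 genes. In the heart 22 of them were higher and 4 lower at an unadjusted p below 0.05, and in the brain 9 were higher and 3 lower. The difference passed for 3, Mmp14, Scx and Smad7, all with the heart effect above. Scx, the transcription factor scleraxis of tendon and valve fibroblasts, rose in the heart from between 2.78 and 5.93 CPM to 9.44, 8.84, 7.84, 5.74 and 9.57 CPM (0.85 ± 0.19, adjusted p = 0.0229), with a brain effect of -0.18 ± 0.14 and a difference of 1.07 ± 0.24 (adjusted p = 0.0291), which was lost in 9 of 33 alternatives. Smad7, an inhibitor of TGF-β receptors, differed by 0.62 ± 0.15 (adjusted p = 0.0378), which was lost in 16. The number of genes of this list that differed was 6 with DESeq2, 1 with limma-voom and 0 without any one of brain libraries 30 and 33 and heart libraries 69 and 72. Emilin1, an elastic fibre glycoprotein that restrains TGF-β, rose in the heart (0.60 ± 0.12, adjusted p = 0.0273) without passing the test of the difference (0.74 ± 0.21, adjusted p = 0.0834).

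The mean effect passed for 8 genes of this list, all higher. These were the basement membrane collagens Col4a1 (0.41) and Col4a2 (0.42), Col6a1 (0.34), Col6a2 (0.32), fibronectin Fn1 (0.29), the metalloproteinase Adamts9 (0.83 ± 0.17, adjusted p = 0.0117), Smad6 (0.39 ± 0.09, adjusted p = 0.0123), which inhibits BMP signalling, and the transglutaminase Tgm2 (0.26 ± 0.06, adjusted p = 0.0202). Col4a2, Fn1 and Tgm2 also met the criteria of a like response. Endothelial cells are a source of several of these, and the 12 endothelial markers summed to 235 to 268 CPM in vehicle brains and 266 to 409 CPM in Cmpd60 brains, and to 1620 to 1770 and 1780 to 2330 CPM in the hearts. Of these markers, Cdh5 (0.26, adjusted p = 0.00879), Flt1 (0.24, adjusted p = 0.0258) and Vwf (0.65, adjusted p = 0.0173) rose by the mean effect, and none had a measured level of 0. The part of endothelial content in the collagen values was not tested.

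Nuclear genes of oxidative phosphorylation, which encode the respiratory chain and ATP synthase, leaned to one side in the brain. Of 80 genes, 77 were lower in the brain after Cmpd60, 35 of them at an unadjusted p below 0.05, with a median of -0.14. In the heart 46 were lower, 8 at an unadjusted p below 0.05, with a median of -0.01. None passed the adjusted edgeR test in the brain or the heart, nor that of the difference or the mean, while DESeq2 called a lower mean effect for 5 of them and the other alternatives for 0 to 3. In edgeR 0 were higher at an unadjusted p below 0.05 in either tissue. Ndufs8, a subunit of complex I, was between 44.2 and 60.2 CPM (median 55.7) in vehicle brains and between 34.4 and 49.3 CPM (median 45.8) in Cmpd60 brains, with overlapping groups (brain effect -0.31 ± 0.08, difference 0.33 ± 0.11, adjusted p = 0.166). The number of the 80 genes lower in the brain at an unadjusted p below 0.05 was 16 without brain vehicle library 30, 21 without brain vehicle library 28 or brain Cmpd60 library 33, and 48 without brain vehicle library 29.

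Of 86 cytosolic ribosomal proteins, 73 were lower in the brain and 30 in the heart, with medians of -0.09 and 0.03, and at an unadjusted p below 0.05 there were 10 lower in the brain and 2 lower and 1 higher in the heart. Of 75 mitochondrial ribosomal proteins, 66 were lower in the brain and 50 in the heart (medians -0.07 and -0.05), but at that threshold more were lower in the heart (13, with 3 higher) than in the brain (6, with 2 higher). The brain median of these 3 lists stayed negative in all 33 alternatives, and the heart median of the oxidative phosphorylation and cytosolic lists changed sign among them. Of the mitochondrial ribosomal proteins, Mrpl48, Mrpl58 and Mrps28 fell by the mean effect. The 12 mitochondrially encoded protein genes tested had medians of 0.05 and -0.04, and none passed an adjusted edgeR test, with 5 higher and 1 lower in the brain at an unadjusted p below 0.05. In this brain material, cerebellar neuron markers summed to 591 to 956 CPM with vehicle and 308 to 732 CPM with Cmpd60, and choroid plexus markers to 478 to 672 and 205 to 813 CPM, and the part of such regional content in the brain values was not tested.

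**Figure D5:**
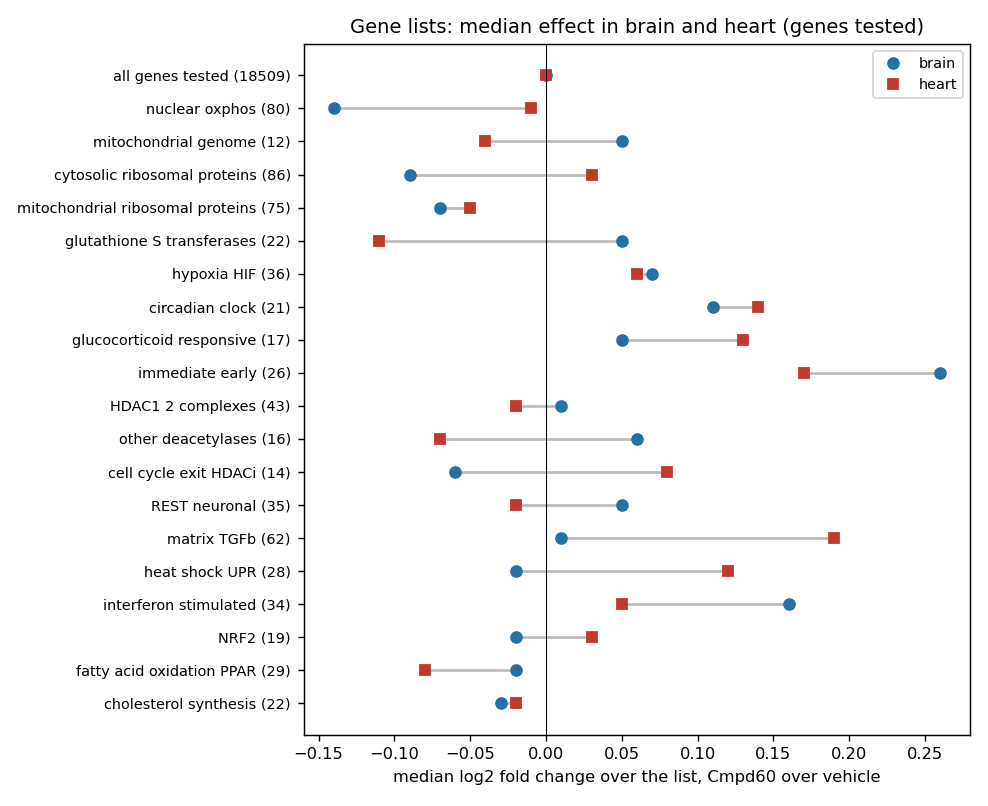
Median log2 fold change of Cmpd60 over vehicle over the tested genes of each pathway list, by tissue, with the median of all genes at 0.00. Nuclear oxidative phosphorylation lies at -0.14 in the brain and -0.01 in the heart, matrix and TGF-β genes at 0.01 and 0.19, and immediate early genes at 0.26 and 0.17.

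Immediate early genes, which neurons and other cells switch on within minutes of a stimulus, had medians of 0.26 in the brain, the highest of the pathway lists there, and 0.17 in the heart over 26 genes. At an unadjusted p below 0.05, 8 were higher in the brain and 6 in the heart, and 0 were lower in either, the 8 becoming 5 without brain Cmpd60 library 34. The mean effect passed for Junb (0.56, adjusted p = 0.0121), Egr3 (0.61, adjusted p = 0.0294) and Ier3 (0.45, adjusted p = 0.0204), and no gene of the list passed the edgeR test of the difference. Of 34 interferon-stimulated genes, Lgals3bp (mean effect 0.60, adjusted p = 0.00192) and Isg15 (0.51, adjusted p = 0.0486) rose by the mean effect. Neither met the criteria of a like response, and Isg15 had effects of 0.77 ± 0.19 in the heart (adjusted p = 0.042) and 0.23 ± 0.18 in the brain. The list had medians of 0.16 in the brain and 0.05 in the heart.

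Few genes of the other lists passed. Among 17 glucocorticoid-responsive genes, Mt2 and Lcn2 rose by the mean effect, Lcn2, an iron-sequestering lipocalin of inflammation, from a mean of 5.15 to 25.9 CPM in the heart and from 0.917 to 1.54 CPM in the brain (1.53, adjusted p = 0.0118). By the same mean, Bnip3 rose among 36 hypoxia genes (0.24, adjusted p = 0.0294), Nfe2l2 among 19 NRF2 genes (0.17, adjusted p = 0.0395) and the cyclin Ccnd1 among 14 cell cycle genes (0.36, adjusted p = 0.0325). In 28 genes of the heat shock and unfolded protein response, Atf4 rose (0.17, adjusted p = 0.0446) and the chaperone Hsph1 fell by 0.34 (adjusted p = 0.0288), and the effect on Sdf2l1, a chaperone of the endoplasmic reticulum, differed between tissues (0.98 ± 0.24, adjusted p = 0.04, lost in 17 of 33 alternatives). No gene of the glucocorticoid, hypoxia, NRF2 and cell cycle lists met the criteria of a like response, and neither did Hsph1. The effects of Ccnd1 and Hsph1 were 0.63 ± 0.20 and -0.66 ± 0.18 in the heart, against 0.08 ± 0.05 and -0.05 ± 0.05 in the brain. No gene of the lists of the circadian clock (21 genes), glutathione S-transferases (22) or cholesterol synthesis (22) passed the edgeR test of the difference or of the mean, and at an unadjusted p below 0.05 the brain had 8, 4 and 2 such genes and the heart 2, 6 and 1. Over all genes, that threshold passed 7.54% higher and 7.71% lower in the brain and 7.34% higher and 6.45% lower in the heart.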

How the data were processed

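Libraries were poly(A)-selected and strand-specific. Per the labels, the authors trimmed reads with Trimmomatic 0.32, aligned them with HISAT2 2.1.0 and counted them per gene with HTSeq 0.11.0. The genome build is not given in the sources used here. The deposited values are raw counts without normalization, and the summary lines of unassigned reads (18.2% to 22.1% per library) were left out.

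Groups followed the sample titles. A gene was tested if its count exceeded 2 in 3 or more brain and 3 or more heart libraries (18509 genes). One edgeR 4.0.16 quasi-likelihood model (TMM, robust) over 23 libraries gave the difference of effects and their mean, and each tissue was also fitted alone over the same genes. CPM values use TMM library sizes. Ratios of tissue levels used a pseudocount of 0.1 CPM. The alternatives were DESeq2 1.42.0, limma-voom (limma 3.58.1), other scalings and filters, thinned counts and each library left out. Libraries of a group differed by more than sampling noise in all 55 pairs.

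Named genes were the 4 with the smallest p per direction in each class and the 6 per direction that changed alike, at 1 CPM or more in both tissues, 2 per list and those the study names. List members that passed were named after their values were seen. A single gene among those picked is not reported here. The members and lists were chosen with earlier results of these data known.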

Additional observations from a re-analysis of the deposited data

Results flagged for a closer look

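Among 85 named genes, the difference between tissues passed the test for 32, and its log2 value is repeated here for each, as the heart effect minus the brain effect. Over all genes, 185 passed. Where the heart effect lay above, the differences were 2.35 for Tnnt1, 1.36 for Ddn, 1.26 for Syt12, 1.07 for Scx, 1.05 for Mt2, 1.03 for Ankrd34a, 0.98 for Sdf2l1, 0.93 for Chd3, 0.89 for Fads6, 0.88 for Samd10, 0.68 for Mmp14, 0.62 for Hcn2 and for Smad7, 0.61 for Amotl1, 0.58 for BC018242, 0.57 for Atp9a, 0.53 for Wnt5a, 0.51 for Cacnb1, 0.48 for Lhfp, 0.39 for Kank1 and 0.33 for Adarb1. Where it lay below, they were -1.21 for Adam33, -0.89 for Cacna1h, -0.79 for Drc3, -0.71 for Mapk10 and for Ephb1, -0.63 for Atp8a2, -0.62 for Ints7, -0.60 for Efnb3, -0.58 for Ncapd3, -0.48 for Sugp2 and -0.43 for Clip3.

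A single library stood far from the rest of its group in 17 of 340 groups of a named gene, where chance gives about 1 in 20. Brain vehicle library 30 was the highest for Tnnt1 (13 CPM), Efnb3 (116 CPM) and Coq7 (23.2 CPM), library 29 for Sirt4 (13.2 CPM) and Adamts9 (5.16 CPM), library 27 for Hcn4 (18.2 CPM) and library 32 for Hsph1 (263 CPM). Brain Cmpd60 library 33 was the lowest for Hcn2 (155.3 CPM). In vehicle hearts, library 66 was the highest for Mr1 (33.8 CPM), library 63 the highest for Txnrd1 (140 CPM) and library 67 the lowest for Mt1 (70 CPM). In Cmpd60 hearts, library 69 was the highest for Egln3 (214 CPM) and Ccnd1 (168 CPM), library 72 for Adarb1 (51.1 CPM) and Ndufs8 (228 CPM), library 71 for Cacna1h (59.9 CPM) and library 68 for Mrps21 (64 CPM).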

How the results depend on the processing

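The 48 named differences and mean effects that passed kept their sign in all 33 alternatives, and 31 passed in each of them. The counts depended on the tool. DESeq2 called 549 differences between tissues (180 of them among the 185), 1181 mean effects, 404 genes in the brain, 732 in the heart and 259 alike, and its classes held 120 opposite, 258 heart, 56 brain and 19 same-direction genes. With limma-voom there were 94 differences, 2 brain genes, and classes of 32, 58, 2 and 2, and with its quality weights 75 differences, 273 mean effects, 2 brain genes, and classes of 22, 50, 1 and 2. In edgeR with DESeq2 size factors the brain had 10 genes and the same-direction class 4. The brain count was 9 without the mitochondrial genome, 23 without a filter and 2 after thinning, where the brain class held 4. Without heart vehicle libraries 62 and 66, an alternative chosen after seeing the data, the heart had 189.

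Leaving out one library gave 83 to 251 differences, 282 to 594 mean effects, 90 to 181 alike genes, 1 to 447 genes in the brain and 95 to 341 in the heart, and classes of 23 to 73 (opposite), 48 to 1.4e+02 (heart, the upper value to 2 digits), 1 to 17 (brain) and 1 to 9 (same direction). The heart class held 48 to 70 genes in 9 of these cases. Of 37 uncalled values, 3 changed sign. The difference of Fzd8 was 0.03, and -0.01 with DESeq2, 0.00 with its size factors, -0.13 after thinning and -0.10 without libraries 62 and 66, and it ranged from -0.08 to 0.10 with one library left out. With one library left out, Hdac1 ranged from 0.00 to 0.12 and Rab26 from -1.08 to 0.91. The causes were not tested. No paired analysis was possible because the labels do not tie a brain and a heart library to the same mouse. Depth limits genes nearly silent in one tissue, such as Rab26 and Fabp7 in the heart.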
